A study of Homo sapiens with 32 samples.

Results

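The measurement described here is how the effect of 4-hydroperoxycyclophosphamide on PC-3 cells changed between 10 h and 24 h, gene by gene. PC-3 is an established cell line from a human prostate adenocarcinoma. It lacks functional p53, the transcription factor that normally raises CDKN1A after DNA damage. For each gene the effect at one time was the mean log2 signal of arrays from treated flasks minus that of vehicle arrays at the same time. The change was the effect at 24 h minus the effect at 10 h, so a positive change means that treated cells stood higher, relative to vehicle, at 24 h than at 10 h. All 10598 genes that passed a filter on low signal were members, and 10 of the 32 arrays of the series entered the contrast.

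The groups were PC-3 given 5.5 µM 4-Hydro peroxy cyclophosphamide, which the labels call active, for 10 h (2 arrays) or 24 h (2 arrays), each set against vehicle cells of the same time (3 arrays each). The sample labels call these control cells untreated, while the protocol says that they received vehicle. A further 3 active and 3 vehicle arrays at 48 h came from the same experiment. They shared in the estimate of the spread and were not part of the change. It is not stated in the labels if arrays within a group were hybridised with RNA of different flasks. The p-values therefore rest on the spread among the arrays at hand, which could be technical.

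As background, 4-hydroperoxycyclophosphamide breaks down in culture medium to the metabolite that liver enzymes make from cyclophosphamide. That metabolite releases phosphoramide mustard, which crosslinks DNA, and acrolein, an electrophile that binds glutathione and other thiols. Electrophiles release the transcription factor NRF2 from its inhibitor KEAP1, and NRF2 raises genes of glutathione, thioredoxin and NADPH supply. Amino acid shortage and several other stresses slow translation and let ATF4 accumulate, which raises amino acid synthesis genes and the transcription factor CHOP. Genes of mitosis are transcribed mainly in G2 and share a promoter element, the cell cycle genes homology region, whereas genes of DNA replication are transcribed from late G1.

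The arrays carried the markers of the line. All 6 epithelial and PC-3 markers passed the filter, at the 89.3rd to 98.5th percentile of probe signal, while of 3 androgen-responsive prostate markers on the array 1 passed, at the 53.9th. Of the leukocyte, fibroblast and endothelial markers on the array, 2 of 5, 1 of 6 and 1 of 4 passed the filter. Arrays of a group correlated at 0.992 or more, and no 2 arrays held identical values. The 2 active arrays at 10 h differed most, with a standard deviation of 0.213 for their log2 difference over genes, against 0.148 to 0.185 for other pairs within groups. Before normalization the 75th percentile of signal was 640.6 to 651 on the active 10 h arrays and 476.8 to 655.5 on the vehicle 10 h arrays. It was 456.9 to 556.5 on the active 24 h arrays and 430.9 to 592.4 on the vehicle 24 h arrays. Its part in the results was not tested. The letters that end the array titles run in order through the experiment, and the labels do not say what they stand for. Both active 10 h arrays lay among the 8 arrays with the earlier letters and both active 24 h arrays among the 8 with the later letters, while vehicle arrays of both times lay in each set.

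The effect of the drug changed between 10 and 24 h for 75 genes, 53 of them upward and 22 downward (limma, Benjamini-Hochberg adjusted p under 0.05, over all 10598 genes). That was 0.708% of the genes tested, with 0.5% rising and 0.208% falling, and 1417 genes had an unadjusted p under 0.05. The median change over all genes was -0.003, a value that quantile normalization keeps small. When arrays were only scaled to a common median, the median change was -0.051 and 27 genes were called, 17 rising and 10 falling. With earlier against later letters as a block, 40 were called, 31 rising and 9 falling, and 36 of the 75 were among them. Within the only run of title letters that held all 4 groups, with 1 array a group and no test, all 75 had the sign of their change. Those 4 arrays were among the 10 whose contrast chose the 75, so the signs are no independent check, and this comparison was chosen after the data had been seen. Without the first active 10 h array 31 genes were called, and without the second, 505 were, 70 of the 75 among them.

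The single times gave the frame for these changes. At 10 h 171 genes differed between active and vehicle arrays (1.61% of those tested), 56 higher (0.528%) and 115 lower (1.09%). At 24 h 202 differed (1.91%), 118 higher (1.11%) and 84 lower (0.793%). At 48 h 1041 differed (9.82%), 529 higher (4.99%) and 512 lower (4.83%). Under median scaling these counts were 70 with 42 higher, 79 with 61 higher, and 466 with 319 higher at 10, 24 and 48 h, so the share of higher calls was larger than under quantile normalization at every time. The 10 h effect, the 24 h effect and the change share arrays, so their values stand side by side below and no agreement between them is read as evidence.

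**Figure D1:**
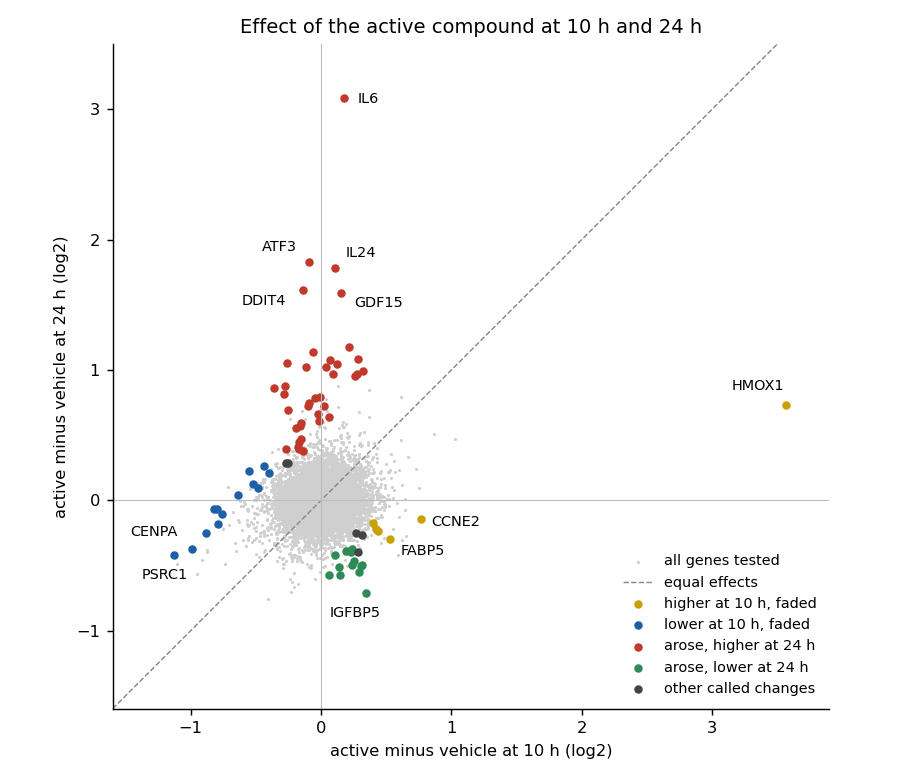
Each point is a gene, with the active minus vehicle difference in log2 signal at 10 h on the x axis and at 24 h on the y axis. Grey points are all 10598 genes, coloured points the classes of genes with a called change, and the dashed line marks equal effects at both times. HMOX1 lies far to the right at 3.56 and 0.73, and IL6 far up at 0.18 and 3.09.

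Of the 171 genes called at 10 h, 19 had a called change against their early effect. They are called faded here: 6 had been higher at 10 h and 13 lower. Another reading of the same 171 is that 19 were also called at 24 h in the same direction, 6 higher and 13 lower, and these 19 were also 19 of the 202 called at 24 h. HMOX1, CENPA and PSRC1 stood in both sets, with an effect that shrank and still passed at 24 h. For the other genes called at 10 h neither a change nor a 24 h effect passed, so the data place them in neither set. Genes called at 24 h, not called at 10 h, and with a called change in the direction of the 24 h effect are called arisen. There were 38 arisen genes that rose and 13 that fell, out of 118 and 84 called at 24 h. The other 5 changed genes were called at neither time or did not meet either definition: GOT1 and ZBTB48 rose and FAT1, SLFN11 and ZBTB14 fell. At the edge of the call, UNG had an adjusted p of 0.0446 for its change and RND3 0.0417, and just outside it ZC3HC1 had 0.0518 and CYB5R2 0.0552.

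The strongest early effect, and the one that faded most, was that on HMOX1, the haem oxygenase that NRF2 and other electrophile-responsive factors raise. Its log2 signal was 11.22 and 10.74 on the active 10 h arrays, against 7.54, 7.16 and 7.55 on the vehicle 10 h arrays. At 24 h it was 8.10 and 7.88 with the drug, against 7.17, 7.41 and 7.20 with vehicle. Treated arrays lay above all vehicle arrays at both times, by a wide margin at 10 h and a narrow one at 24 h. The effect was 11.8-fold at 10 h (log2 3.56, adjusted p = 4.18e-15) and 1.66-fold at 24 h (log2 0.73, adjusted p = 0.00167), and the effect fell by 2.83 on the log2 scale (SE 0.18, adjusted p = 5.47e-10). At 48 h the arrays read 7.52, 7.45 and 7.44 with the drug and 7.04, 7.15 and 7.07 with vehicle, still without overlap, at 1.30-fold (adjusted p = 0.0344).

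The other genes of NRF2 did not show a called change. Of 24 measured members of the list of glutathione, thioredoxin and NADPH genes, 1 fell, HMOX1 itself, and 23 did not pass. The median change was -0.01, and 0.708% of all genes had a called change. The list had 7 members higher at 10 h, 6 at 24 h and 7 at 48 h, with 0, 0 and 1 lower, and its median effect was 0.17, 0.25 and 0.18. GCLM, the regulatory subunit of glutamate-cysteine ligase, read 11.86 and 11.54 on active and 10.70, 10.56 and 10.77 on vehicle arrays at 10 h. By 24 h GCLM read 11.09 and 11.10 on active and 10.54, 10.64 and 10.69 on vehicle arrays. Its treated arrays were above all vehicle arrays at both times, with effects of 1.02 and 0.47, and the change of -0.56 did not pass (SE 0.15, adjusted p = 0.077). TXNRD1, the thioredoxin reductase, had effects of 0.73 at 10 h, which passed, and 0.24 at 24 h, which did not (change -0.49, adjusted p = 0.0984). UGDH, which makes UDP-glucuronate, was called higher at both times, at 0.87 and 0.51 (change -0.36, adjusted p = 0.347). NQO1, a quinone reductase, had a change of -0.13 (adjusted p = 0.659), and SQSTM1, an autophagy receptor that binds KEAP1, had effects of 0.17 at 10 h, which did not pass, and 0.56 at 24 h, which did.

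CCNE2, the cyclin E2 that drives entry into S phase, was the next clearest of the 6 genes that had been higher and faded. It read 9.77 and 9.57 on active 10 h arrays, against 8.99, 8.95 and 8.78 on vehicle. By 24 h it read 8.91 and 9.02 on active arrays and 9.09, 9.15 and 9.09 on vehicle. The treated arrays were all above vehicle at 10 h and all just below it at 24 h. The effect was 0.76 at 10 h (adjusted p = 6.4e-05) and -0.14 at 24 h (adjusted p = 0.585), a change of -0.91 (SE 0.14, adjusted p = 0.00108). At 48 h its effect was -0.13 and did not pass.

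FABP5, a fatty acid binding protein, read 7.88 and 7.88 on active and 7.48, 7.12 and 7.45 on vehicle arrays at 10 h. At 24 h it read 7.09 and 7.20 on active and 7.49, 7.47 and 7.38 on vehicle arrays, so the groups changed places without overlap (change -0.83, SE 0.16, adjusted p = 0.0126). KPNA3, a nuclear import adaptor, changed by -0.67 and FAM20C, a secretory pathway kinase, by -0.64 (adjusted p = 0.0414 for both). KPNA3 kept its called change in 10 of 29 alternative settings and FAM20C in 6 of 29. The active 10 h arrays of FAM20C were far apart, at 8.80 and 8.36. FAM217B completed the group. The median effect of the 6 was 0.48 at 10 h, -0.20 at 24 h and 0.01 at 48 h. At 48 h 2 of the 6, HMOX1 and FAM20C, were called higher, against 4.99% of all genes. The effect on FAM20C was then 0.36 (adjusted p = 0.015), so it did not stay faded. Without the first active 10 h array 2 of the 6 kept their call, and without the second all 6 did.

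**Figure D2:**
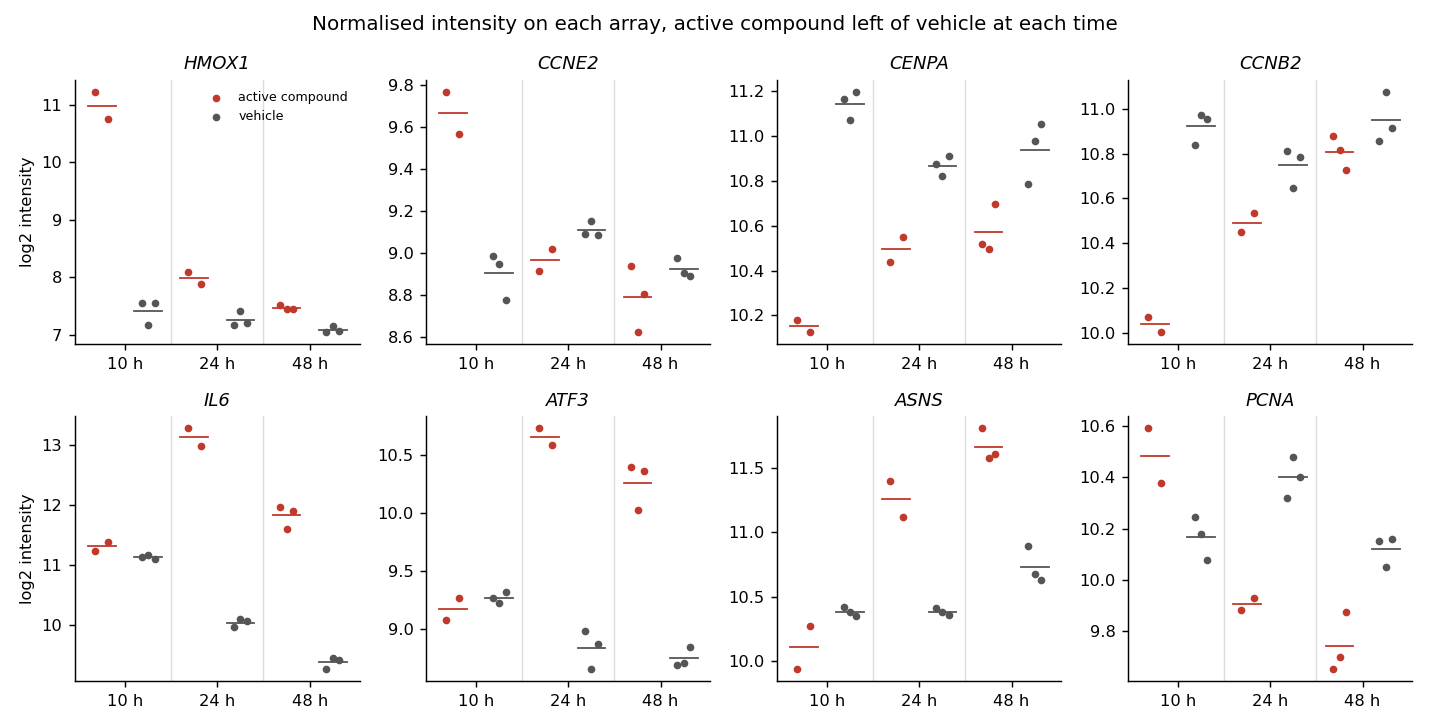
Log2 signal of 8 genes on each array, with active arrays in red left of vehicle arrays in grey at 10, 24 and 48 h, and short bars at the group means. HMOX1 and CCNE2 are highest on active arrays at 10 h, CENPA and CCNB2 are low there, and IL6, ATF3 and ASNS are high on active arrays at 24 and 48 h, where PCNA is low.

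The 13 genes that were lower at 10 h and then faded held 6 members of the mitosis lists. CENPA, the histone H3 variant that marks centromeres, PSRC1 and FAM83D, spindle proteins, KIF2C, a kinesin that shortens microtubules at centromeres, and CCNB1 and CCNB2, the B-type cyclins, were these 6. CKAP2L and TROAP, both spindle-associated proteins that are on no list here, FAM110A, AVL9, TNFAIP8L1, TRAF3IP2 and UBALD2 made up the rest. Promoter sequences of 4 of the 13 are shown because they carry the cell cycle genes homology region, TTTGAA or the variant TTCGAA, close to the gene start. Each line gives 60 bases of the RefSeq promoter (GRCh38.p14), read along the gene's own strand, with the match in capitals.
CENPA chr2:26786011-26786070 (+): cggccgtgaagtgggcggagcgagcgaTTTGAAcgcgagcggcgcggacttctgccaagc
CCNB2 chr15:59105090-59105149 (+): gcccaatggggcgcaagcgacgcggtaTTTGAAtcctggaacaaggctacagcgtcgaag
CKAP2L chr2:112764594-112764653 (-): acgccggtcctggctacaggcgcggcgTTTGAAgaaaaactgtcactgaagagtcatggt
PSRC1 chr1:109283142-109283201 (-): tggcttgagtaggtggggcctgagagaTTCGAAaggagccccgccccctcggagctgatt
The matches begin 18, 29, 17 and 29 bases before the gene start in CENPA, CCNB2, CKAP2L and PSRC1. The search covered both strands of 250 bases before to 50 bases after the start, in the 8810 tested genes that RefSeq's promoter table held. TTTGAA or TTCGAA lay in 11.7% of these promoters (TTTGAA in 10.2%, TTCGAA in 1.78%), in 36 of 46 promoters of the mitosis lists (78.3%) and in 5 of 11 promoters of the faded, early lower genes (45.5%). It lay in 6 of 37 promoters of the arisen, rising genes (16.2%) and in 0 of 12 of the arisen, falling genes. A match describes letters and not a bound site, and no match says only that these letters are not in this window.

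CENPA read 10.18 and 10.12 on active and 11.17, 11.07 and 11.20 on vehicle arrays at 10 h. By 24 h it read 10.44 and 10.55 on active and 10.87, 10.82 and 10.91 on vehicle arrays. The treated arrays were below every vehicle array at both times, with a gap at 24 h that was less than that at 10 h. The effect was -0.99 at 10 h (adjusted p = 1.53e-06) and -0.37 at 24 h (adjusted p = 0.0392), and the change 0.62 (SE 0.13, adjusted p = 0.0252). At 48 h the effect was again -0.37 (adjusted p = 0.00574).

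CCNB2 read 10.07 and 10.00 on active and 10.84, 10.97 and 10.95 on vehicle arrays at 10 h, and 10.45 and 10.54 on active and 10.81, 10.65 and 10.78 on vehicle arrays at 24 h. Its effect was -0.88 at 10 h, which passed, and -0.25 at 24 h, which did not, with a change of 0.63 (SE 0.13, adjusted p = 0.0186). By 48 h active arrays read 10.88, 10.82 and 10.73 and vehicle arrays 10.86, 11.07 and 10.91, so the groups overlapped. CCNB1 was similar, with 8.23 and 8.06 on active and 8.98, 8.86 and 8.89 on vehicle arrays at 10 h. At 24 h CCNB1 read 8.35 and 8.41 on active and 8.65, 8.39 and 8.41 on vehicle arrays, which overlapped (change 0.66, SE 0.15, adjusted p = 0.0368). KIF2C read 9.24 and 9.59 on active and 10.17, 10.18 and 10.36 on vehicle arrays at 10 h, against 9.88 and 9.91 on active and 9.90, 9.94 and 10.06 on vehicle arrays at 24 h. Its change was 0.75 (SE 0.15, adjusted p = 0.0126), and the 24 h groups overlapped.

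PSRC1 had the largest early loss of the named mitotic genes, at -1.12 (adjusted p = 1.53e-06), and an effect of -0.42 at 24 h (adjusted p = 0.0433). Its change was 0.70 (adjusted p = 0.0277). Both arms contributed to such changes. In CCNB1 the treated arrays stood 0.23 higher at 24 h than at 10 h and the vehicle arrays 0.42 lower. In PSRC1 the treated arrays stood 0.17 higher and the vehicle arrays 0.54 lower. In CCNB2 the larger part was on the treated side, with 0.45 higher in treated and 0.17 lower in vehicle arrays. The change of effect in CCNB1, PSRC1 and CCNB2 thus holds a lower vehicle level at 24 h as well as a higher treated level.

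Most members of the mitosis lists had no called change. Of 23 mitotic cyclins, kinases and checkpoint genes, 13 were lower at 10 h and 3 at 24 h, while 2 had a called change, both upward, CCNB1 and CCNB2. Their median effect was -0.50 at 10 h, -0.10 at 24 h and -0.14 at 48 h, and the median change was 0.33, with 20 of 23 positive. Of 32 kinesin, spindle and centromere genes, 19 were lower at 10 h, 7 at 24 h and 13 at 48 h, and 4 had a called change, all upward. Their median effect was -0.41, -0.22 and -0.21 at 10, 24 and 48 h and the median change 0.21, with 26 of 32 positive. Over all genes tested, 5231 of 10598 changes were positive. From 10 to 24 h the median shift of the cyclin and kinase list was 0.09 on treated and -0.22 on vehicle arrays. For the spindle list these medians were -0.003 and -0.28, so in both lists the larger median shift was on the vehicle side. The 48 h arrays, which the change does not use, thus showed 13 lower spindle genes, against 4.83% of all genes. AURKA, the Aurora A kinase, had effects of -0.76 and -0.22 at 10 and 24 h and a change of 0.53 (adjusted p = 0.064). PLK1, the Polo-like kinase, had a change of 0.48 (adjusted p = 0.111) and was called lower at both times, at -0.87 and -0.40. KIF20A, a kinesin of cytokinesis, was also called lower at both, at -0.95 and -0.57, with a change of 0.38 (adjusted p = 0.223).

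The calls of the early lower genes depended on the settings. Of the 13, 0 kept a called change under median scaling or without the first active 24 h array, 1, UBALD2, with earlier against later title letters as a block, and 4 without the first active 10 h array. Their sign was the same in all of these settings, which reuse the arrays that chose the genes. The median change of the mitotic kinase list lay between 0.26 and 0.37 over all settings tried, and that of the spindle list between 0.16 and 0.26.

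**Figure D3:**
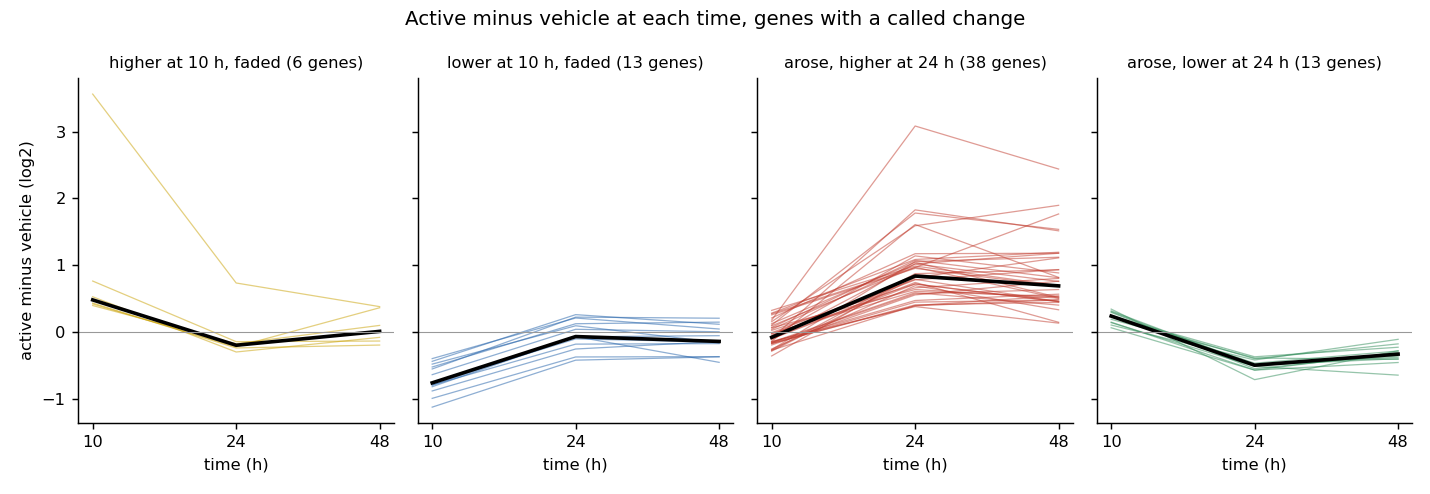
Active minus vehicle difference in log2 signal at 10, 24 and 48 h for the genes with a called change, 1 line a gene in 4 panels by class, with the class median in black. The 38 arisen, rising genes have medians of -0.08, 0.84 and 0.69, and the 13 early lower genes have medians of -0.76, -0.07 and -0.14.

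Among the 38 genes whose effect arose and rose, the list with the most members was that of ATF4 and CHOP. It had 40 measured members. At 10 h 0 were higher or lower and the median effect was -0.01, at 24 h 21 were higher with a median of 0.42, and at 48 h 26 were higher, also with a median of 0.42. Of the 40, 10 had a called change, all upward, and 37 changes were positive, with a median of 0.34. Promoter stretches of 4 arisen genes are shown for the elements that factors of this family bind. Capitals mark the C/EBP-ATF composite TGATGNAA in ASNS and ATF3 and the cyclic AMP response element TGACGTCA in DUSP1 and PPP1R15A.
ASNS chr7:97872443-97872502 (-): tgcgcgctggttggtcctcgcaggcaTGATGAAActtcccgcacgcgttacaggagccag
ATF3 chr1:212565190-212565249 (+): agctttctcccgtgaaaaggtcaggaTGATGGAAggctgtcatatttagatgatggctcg
DUSP1 chr5:172771287-172771346 (-): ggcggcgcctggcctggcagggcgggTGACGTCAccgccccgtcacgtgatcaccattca
PPP1R15A chr19:48872337-48872396 (+): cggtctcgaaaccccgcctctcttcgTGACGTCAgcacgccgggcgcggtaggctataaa
The matches begin 68, 191, 125 and 58 bases before the start of ASNS, ATF3, DUSP1 and PPP1R15A. TGATGNAA was present in 1.8% of the 8810 promoters, in 10 of 35 promoters of the ATF4 list (28.6%) and in 3 of 37 of the arisen, rising genes (8.11%). TGACGTCA was present in 3.21% of all and in 3 of 37 (8.11%). It lay in 1 of 35 promoters of the ATF4 list (2.86%) and in 4 of 46 of the mitosis lists (8.7%). The AP-1 motif TGANTCA was present in 4.81% of all, in 3 of 37 and in 3 of 35 promoters of the ATF4 list (8.57%). The antioxidant response element, searched as TGACNNNGC, was present in 15% of all promoters and in 6 of 37 (16.2%). It lay in 10 of 35 promoters of the ATF4 list (28.6%).

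ATF3, a stress-induced repressor of the ATF family, read 9.08 and 9.27 on active and 9.27, 9.22 and 9.32 on vehicle arrays at 10 h. At 24 h it read 10.73 and 10.59 on active and 8.98, 8.65 and 8.87 on vehicle arrays. The groups overlapped at 10 h and stood apart at 24 h, with effects of -0.09 and 1.83 and a change of 1.92 (SE 0.16, adjusted p = 8.53e-08). At 48 h active arrays read 10.40, 10.02 and 10.36 and vehicle arrays 8.69, 8.71 and 8.85, an effect of 1.52.

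ASNS, asparagine synthetase, read 9.94 and 10.28 on active and 10.42, 10.39 and 10.35 on vehicle arrays at 10 h, and 11.40 and 11.12 on active and 10.42, 10.38 and 10.36 on vehicle arrays at 24 h. Treated arrays were below vehicle at 10 h and above it at 24 h. The 10 h effect of -0.28 did not pass, the 24 h effect of 0.87 did, and the change was 1.15 (SE 0.16, adjusted p = 0.000197). Its vehicle arrays differed by 0.00 between the times, so the change lay on the treated side. At 48 h active arrays read 11.81, 11.58 and 11.61 and vehicle arrays 10.90, 10.67 and 10.63.

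DDIT3, which encodes CHOP, read 8.05 and 8.14 on active and 8.10, 8.02 and 8.20 on vehicle arrays at 10 h, and 8.88 and 8.93 on active and 8.06, 8.07 and 8.22 on vehicle arrays at 24 h. The overlap at 10 h was complete and the 24 h groups were apart (change 0.80, SE 0.14, adjusted p = 0.00601). DDIT4, an inhibitor of mTORC1 signalling, read 9.38 and 9.22 on active and 9.47, 9.49 and 9.36 on vehicle arrays at 10 h, and 10.94 and 10.87 on active and 9.53, 9.06 and 9.30 on vehicle arrays at 24 h. Its change was 1.75 (SE 0.22, adjusted p = 7.34e-05), with an effect of 1.61 at 24 h and 0.82 at 48 h. TRIB3, a pseudokinase that CHOP raises, changed by 1.13 (adjusted p = 0.00147). GDF15, a secreted stress hormone, read 7.99 and 7.94 on active and 7.70, 7.69 and 8.03 on vehicle arrays at 10 h. At 24 h GDF15 read 9.23 and 9.33 on active and 7.76, 7.52 and 7.79 on vehicle arrays (change 1.44, SE 0.22, adjusted p = 0.000895), and its effect at 48 h was 1.90. CBS, CEBPB, PHGDH and PPP1R15A were the other list members with a called change.

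The ER chaperones, which the unfolded protein response raises through XBP1 and ATF6, had 0 called changes in 22 measured members and a median change of -0.02. With 0.708% of all genes called, 0 in a list of this size is near the share over all genes. DNAJB9, an ER co-chaperone, was higher at 24 h (0.60, adjusted p = 0.0018), and its change of 0.43 did not pass (adjusted p = 0.19). XBP1 had a change of 0.42 (adjusted p = 0.175). Over the treated arrays alone, members of the ATF4 list stood a median of 0.38 higher at 24 h than at 10 h, and on vehicle arrays a median of 0.01 higher.

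The cytokine and chemokine genes formed the next group of arisen effects. Of 20 measured members of the list, 8 had a called change, all upward, and 18 changes were positive, with a median of 0.60. At 10 h 0 were called and the median effect was -0.01, at 24 h 12 were higher with a median of 0.65, and at 48 h 16 were higher with a median of 0.75. Here the vehicle arrays moved too: the median shift between 10 and 24 h was 0.17 on treated and -0.32 on vehicle arrays.

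IL6, interleukin 6, had the largest change in size of all 10598 genes and the smallest adjusted p, 2.17e-11. It read 11.24 and 11.38 on active and 11.14, 11.16 and 11.10 on vehicle arrays at 10 h, and 13.27 and 12.99 on active and 9.96, 10.10 and 10.07 on vehicle arrays at 24 h. The groups were close at 10 h and far apart at 24 h. The 24 h effect was 8.49-fold (log2 3.09, adjusted p = 3.05e-15), the 10 h effect of 0.18 did not pass (adjusted p = 0.41), and the change was 2.91 (SE 0.15), or 7.49-fold. Treated arrays stood 1.82 higher at 24 h than at 10 h and vehicle arrays 1.09 lower. At 48 h active arrays read 11.98, 11.60 and 11.90 and vehicle arrays 9.27, 9.46 and 9.43, an effect of 2.44.

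IL24, a cytokine of the IL10 family, read 8.30 and 8.57 on active and 8.18, 8.58 and 8.24 on vehicle arrays at 10 h, and 9.59 and 9.56 on active and 7.78, 7.84 and 7.76 on vehicle arrays at 24 h (change 1.68, SE 0.20, adjusted p = 3.67e-05). IL1A, interleukin 1 alpha, read 6.93 and 6.73 on active and 7.14, 6.68 and 6.87 on vehicle arrays at 10 h. At 24 h IL1A read 7.78 and 7.66 on active and 6.41, 6.68 and 6.65 on vehicle arrays (change 1.20, adjusted p = 0.000185). For both genes the groups overlapped at 10 h and not at 24 h.

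The chemokine genes differed in which arm moved. CXCL8, interleukin 8, read 13.71 and 13.63 on active and 13.36, 13.63 and 13.39 on vehicle arrays at 10 h. By 24 h it read 13.77 and 13.71 on active and 12.27, 12.55 and 12.87 on vehicle arrays. Its change of 0.96 (SE 0.20, adjusted p = 0.0185) was made of a shift of 0.07 on treated and -0.89 on vehicle arrays. CCL20 likewise shifted by 0.16 on treated and -0.94 on vehicle arrays (change 1.10, adjusted p = 8.58e-05), reading 7.71 and 8.01 on active and 8.17, 8.18 and 8.09 on vehicle arrays at 10 h and 8.15 and 7.90 on active and 7.12, 7.28 and 7.24 on vehicle arrays at 24 h. In these genes the level on treated arrays stayed near that of 10 h while vehicle arrays stood lower at 24 h. CXCL1 shifted by 0.91 on treated and -0.31 on vehicle arrays, with a change of 1.22 (SE 0.20, adjusted p = 0.00258). PTGS2, the inducible prostaglandin synthase, had effects of 0.07 and 1.07 and a change of 1.0 (adjusted p = 0.000895), and CXCL6 also had a called rise.

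**Figure D4:**
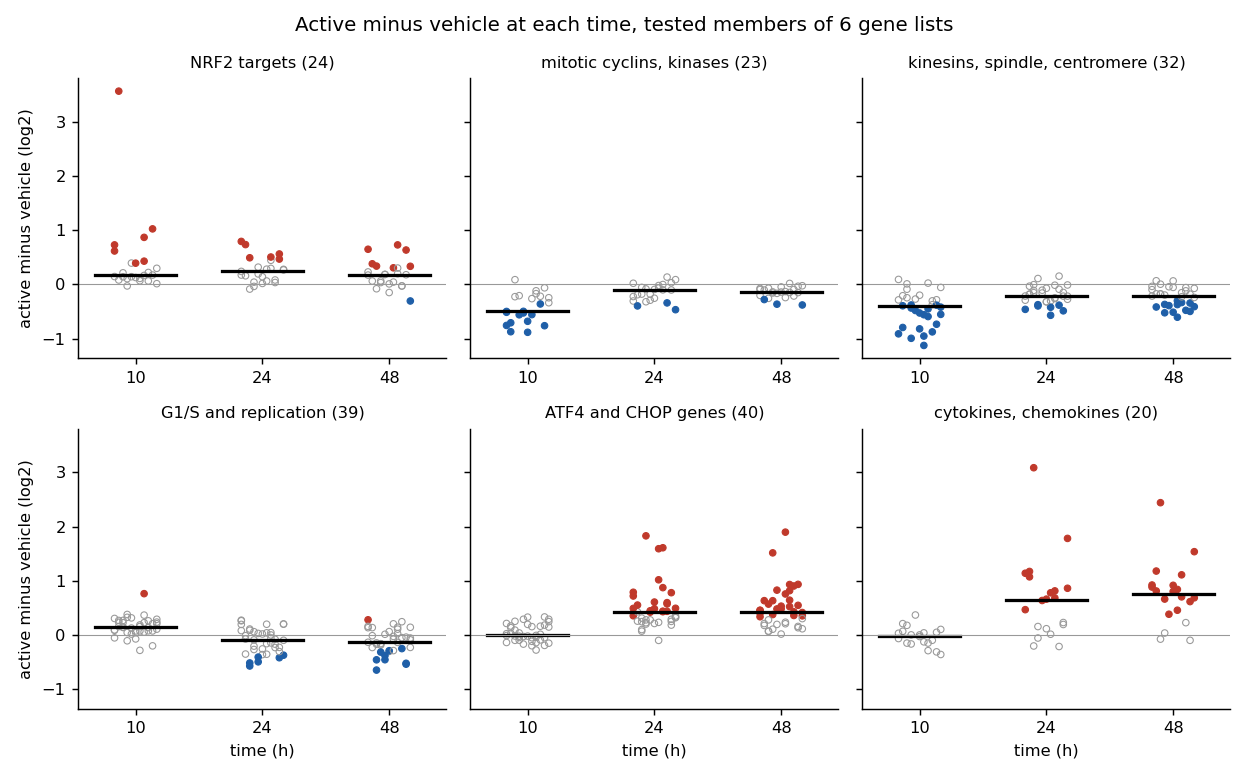
Active minus vehicle difference in log2 signal at 10, 24 and 48 h for the measured members of 6 gene lists, with filled red points for called higher, filled blue for called lower, open points for not called and a black bar at the median. The ATF4 and CHOP list has 0, 21 and 26 higher members at 10, 24 and 48 h, and the mitotic cyclin and kinase list has 13, 3 and 3 lower members.

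Of the regulators around these genes, single members changed. TNFAIP3, which ends NF-kB signalling, rose in effect by 0.66 (adjusted p = 0.0407), a change called in 11 of 29 alternative settings. Its active arrays were above all vehicle arrays already at 10 h, by an effect of 0.32 that did not pass. The 24 h effect was 0.99. It was the 1 with a called change of 14 NF-kB subunits and feedback inhibitors, whose median change was 0.28. RELB, an NF-kB subunit, was higher at 24 h (0.42) with a change of 0.35 that did not pass (adjusted p = 0.191). DUSP1 and DUSP10, phosphatases that switch off MAP kinases, changed by 0.80 (adjusted p = 0.0144) and 0.62 (adjusted p = 0.0405). They were the 2 with a called change of 14 feedback genes of that pathway. In the immediate early list of 20, KLF6 and BTG1, a zinc finger factor and an antiproliferative gene, rose by 0.82 and 0.73 (adjusted p = 0.0028 and 0.0186). CCN2, a matricellular target of YAP and TGF-beta signalling, fell by 0.63 (adjusted p = 0.0206).

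CDKN1A, the inhibitor p21 of cyclin-dependent kinases, read 9.82 and 10.24 on active and 10.12, 10.32 and 10.46 on vehicle arrays at 10 h, and 10.85 and 10.83 on active and 9.82, 9.65 and 9.89 on vehicle arrays at 24 h. The groups overlapped at 10 h and were apart at 24 h, with a change of 1.32 (SE 0.16, adjusted p = 5.31e-05) made of 0.81 on treated and -0.51 on vehicle arrays. It was the only gene with a called change of 18 measured p53 targets, whose median change was -0.01. GADD45A, a growth arrest gene that ATF4 and p53 can both raise, was higher at 10 h (0.37), 24 h (0.85) and 48 h (0.69), and its change of 0.48 did not pass (adjusted p = 0.0738). TP53I3 and AEN had changes of 0.61 and 0.50 (adjusted p = 0.0652 and 0.0783).

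Further arisen genes were BMP2, a bone morphogenetic protein (change 0.92, adjusted p = 0.00515), CLDN1, a tight junction protein (0.98, adjusted p = 0.00195), and PIM1, a survival kinase (0.95, adjusted p = 0.0126). BMP2 was the only gene with a called change of 12 in the BMP and ID list, whose median change was -0.06. PIM1 was the one of these 3 with no called effect at 48 h (0.33, adjusted p = 0.0795). MX1, an interferon-induced GTPase, changed by 0.67 (adjusted p = 0.0273). It was the 1 with a called change of 20 interferon-stimulated genes, with a list median of 0.21. At 48 h 11 of these 20 were higher, against 4.99% of all genes.

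At 48 h 35 of the 38 arisen, rising genes were called higher, against 4.99% of all genes, and all 38 had a positive effect. The 48 h arrays were not part of the contrast, but they shared in the estimate of the spread behind the calls. With the 10 and 24 h arrays alone, 31 of the 38 kept a called change. Of the 38, 19 kept a called change without the first active 10 h array, 37 without the second, 19 without the first active 24 h array, 26 with earlier against later title letters as a block, and 17 under median scaling.

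The 13 arisen genes that fell held genes of DNA replication and repair. Their median effect was 0.24 at 10 h, -0.50 at 24 h and -0.33 at 48 h. At 10 h all 13 effects were positive (0.06 to 0.34), though none passed. The 10 h arrays were part of the contrast that chose these genes, and choosing by a negative change favours a positive 10 h effect. The signs at 10 h are therefore no evidence of an early difference. By its definition the change of these genes holds the uncalled 10 h effect as well as the 24 h effect. PCNA, the sliding clamp of DNA polymerases, read 10.59 and 10.38 on active and 10.25, 10.18 and 10.08 on vehicle arrays at 10 h, and 9.88 and 9.93 on active and 10.32, 10.48 and 10.40 on vehicle arrays at 24 h. The treated arrays were above all vehicle arrays at 10 h, by an effect of 0.32 that did not pass (adjusted p = 0.0875), and below all of them at 24 h (-0.49, adjusted p = 0.00502). The change was -0.81 (SE 0.13, adjusted p = 0.00239), with a shift of -0.58 on treated and 0.23 on vehicle arrays. At 48 h active arrays read 9.65, 9.70 and 9.87 and vehicle arrays 10.15, 10.05 and 10.16.

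MCM5 and MCM3, subunits of the replicative helicase, changed by -0.72 and -0.61 (adjusted p = 0.0353 and 0.0239). MSH6, a mismatch recognition subunit, changed by -0.72 (adjusted p = 0.0126), and RMI1, a partner of the BLM helicase, by -0.74 (adjusted p = 0.0126). UNG, uracil DNA glycosylase, changed by -0.65 (adjusted p = 0.0446), while its second, dimmer probe gave -0.13. Among 39 measured genes for entry into S phase and replication (the G1/S list), 5 had a called change, all downward: PCNA, MCM3, MCM5, UNG and the faded CCNE2. Only 5 of the 39 changes were positive, with a median of -0.23 and median effects of 0.15 at 10 h and -0.09 at 24 h. The list's treated arrays stood a median of 0.13 lower at 24 h than at 10 h and its vehicle arrays 0.11 higher. Under median scaling, and with earlier against later title letters as a block, 3 of the 5 remained called. Of 29 crosslink, alkylation and recombination repair genes, MSH6 alone had a called change, and the median was -0.07.

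Replication-dependent histones, which are made during S phase, had 0 called changes of 23 measured, against 0.708% of all genes, and a median of -0.19. They had 1 member lower at 10 h, 9 lower at 24 h and, at 48 h, 5 higher and 1 lower. H2BC5 had effects of -0.71 at 24 h and 0.47 at 48 h, both called, with a change between 10 and 24 h of -0.47 that did not pass (adjusted p = 0.101) and was -0.06 on its second probe. H2AC6 had -0.67 and 0.37 at these times.

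IGFBP5, which binds insulin-like growth factors, read 10.45 and 9.89 on active and 9.86, 9.90 and 9.71 on vehicle arrays at 10 h, and 9.71 and 9.42 on active and 10.39, 10.31 and 10.13 on vehicle arrays at 24 h. The 10 h groups overlapped, with 1 active array high, and the 24 h groups did not (change -1.06, SE 0.19, adjusted p = 0.00515). At 48 h its effect was -0.28 and did not pass. INHBB, a subunit of activin and inhibin, changed by -0.81 (adjusted p = 0.00219), and OSGEPL1, a mitochondrial tRNA modification enzyme, by -0.84 (adjusted p = 0.00846). FAT1, an atypical cadherin, changed by -0.68 (adjusted p = 0.0316) with neither single effect called. CPA4, FOXQ1 and PCIF1 were the other members. At 48 h 9 of the 13 were called lower, against 4.83% of all genes, and all 13 had a negative effect. The class kept 5 called changes without the first active 10 h array, 3 without the second active 24 h array, and 6 under median scaling.

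**Figure D5:**
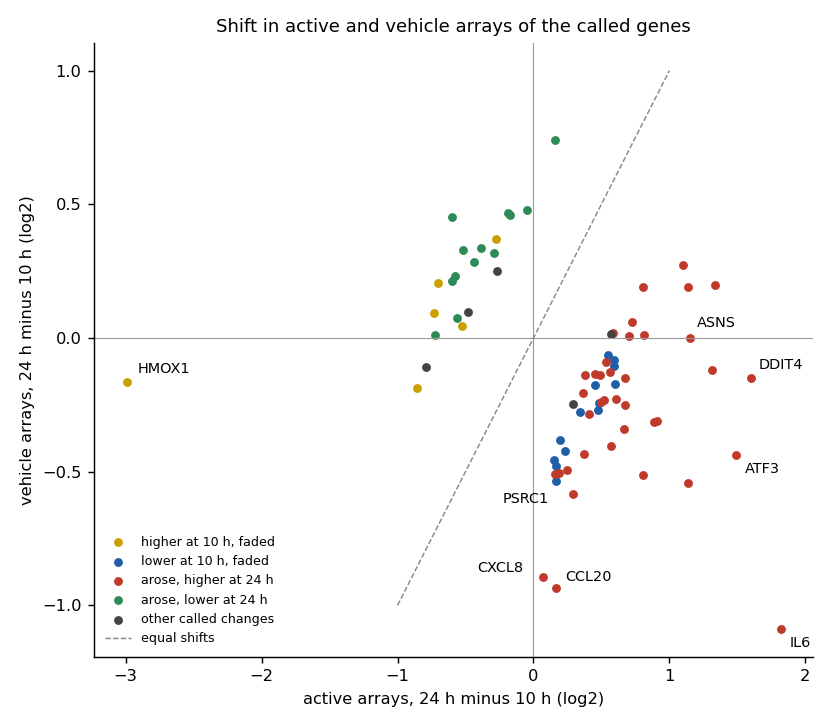
Shift between 10 and 24 h for the 75 genes with a called change, with active arrays (24 h minus 10 h, log2) on the x axis and vehicle arrays on the y axis, and a dashed line at equal shifts. IL6 lies at 1.82 and -1.09, HMOX1 at -2.99 and -0.16, and CXCL8 at 0.07 and -0.89.

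A change in effect can come from the treated arm, the vehicle arm or both, and the 75 genes held each kind. Treated arrays moved in the direction of the change in 53 of 53 rising and 21 of 22 falling genes. Vehicle arrays moved the other way in 43 of 53 and 19 of 22. The vehicle shift was larger than the treated shift in 12 rising and 6 falling genes, CXCL8, CCL20 and UNG among them. These shifts define the change and were not tested on their own. Vehicle shifts were -0.16 for HMOX1, 0.00 for ASNS, 0.01 for DDIT3, -0.12 for GDF15 and 0.01 for RMI1, so the changes of these genes lay almost wholly on the treated side.

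Several lists showed no called change. Over all genes 0.708% had one, so 0 calls in lists of this size is near that share and is no result about them. Cytosolic heat shock proteins had 0 of 19, with a median of -0.14: HSPA1A, the inducible HSP70, had effects of 0.33 at 10 h and -0.22 at 24 h, neither called, and a change of -0.55 (adjusted p = 0.118). Metallothioneins, which bind zinc, had 0 of 6 and a median of -0.10. Cholesterol and fatty acid synthesis genes had 0 of 20 and a median of -0.06, with NSDHL, a sterol dehydrogenase, closest to the call at 0.59 (adjusted p = 0.075). A change that misses the threshold does not show that the effect was the same at both times.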

How the data were processed

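The deposited table of linear probe intensity, with no normalization stated in its header, was the starting point. A second deposited table holds log2 values that the authors normalized between arrays by a method not given in the sources used here, and it served as an alternative. BeadStudio and R 2.12.0 are named in the submitters' processing notes. Intensities of 20589 probes on 32 arrays were corrected with normexp (offset 50), quantile normalized and log2 transformed. The number of arrays limits the precision. Probes without a gene symbol (2257) were left out, the upper 60% by mean signal were kept, and each gene took its brightest probe, which left 10598 genes.

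The 6 groups of the active-compound experiment (16 arrays, 10 residual degrees of freedom) were fitted with limma 3.58.1 in R 4.3.3, and p-values were adjusted by Benjamini-Hochberg over all genes for each of 4 comparisons. Alternatives changed the background correction, normalization, filter, arrays in the fit and blocks, and left out each array in turn. Promoters came from RefSeq (GRCh38.p14). Genes are given values by a rule: the 15 largest called changes each way, up to 4 members of each of 18 lists with the smallest p for the change, and a set of genes fixed by name, 92 in all. Some genes at the edge of the call, called at both times or with a second probe are given values outside this rule. Members, lists, motifs and the choice of the 16 arrays were made with earlier results of these data known.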

Additional observations from a re-analysis of the deposited data

Results flagged for a closer look

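The effect of 4-hydroperoxycyclophosphamide differed between 24 and 10 h by limma's test of the difference itself for 75 genes. The 45 of them that come under the rule for named genes are listed here. All values are log2 changes, the 24 h effect minus the 10 h effect. No group had enough arrays for a test of single outlying arrays.

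Among the effects that arose and rose, stress genes changed by 1.92 (ATF3), 1.75 (DDIT4), 1.44 (GDF15), 1.15 (ASNS), 1.13 (TRIB3) and 0.80 (DDIT3). Secreted immune genes and prostaglandin synthase changed by 2.91 (IL6), 1.68 (IL24), 1.22 (CXCL1), 1.20 (IL1A), 1.10 (CCL20), 1.0 (PTGS2) and 0.96 (CXCL8). Other genes changed by 1.32 (CDKN1A), 0.98 (CLDN1), 0.95 (PIM1), 0.92 (BMP2), 0.82 (KLF6), 0.80 (DUSP1), 0.73 (BTG1), 0.67 (MX1), 0.66 (TNFAIP3) and 0.62 (DUSP10).

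Early losses that faded were those of KIF2C (0.75), PSRC1 (0.70), CCNB1 (0.66), CCNB2 (0.63), CENPA (0.62) and FAM83D (0.61). Early rises that faded were those of HMOX1 (-2.83), CCNE2 (-0.91), FABP5 (-0.83), KPNA3 (-0.67) and FAM20C (-0.64). Effects that arose and fell were those on IGFBP5 (-1.06), OSGEPL1 (-0.84), PCNA (-0.81), INHBB (-0.81), RMI1 (-0.74), MCM5 (-0.72), MSH6 (-0.72), UNG (-0.65), CCN2 (-0.63) and MCM3 (-0.61). FAT1 changed by -0.68 with no called effect at 10 or 24 h.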

How the results depend on the processing

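The 75 called changes became 3 (ATF3, HMOX1 and IL1A) when the spread was taken over all 32 arrays, 27 under median scaling, 37 with an offset of 16, 42 with no filter on low signal and 40 with earlier against later title letters as a block. Leaving out 1 array at a time gave 29 (without the first active 24 h array) to 505 (without the second active 10 h array). The count was 31 without the first active 10 h array, 39 without the second active 24 h array, and 43, 48 and 44 without vehicle 10 h array 2, vehicle 10 h array 3 or vehicle 24 h array 2. None of the 75 changed sign under any of up to 29 settings in which it was tested. These settings reuse the arrays that chose the 75, so the signs are no independent check. ATF3, HMOX1 and IL1A were called in each of their settings (29, 29 and 28). With these 3 included, 18 of the 75 kept their call in every setting other than the fit of all 32 arrays. The cause of the moves was not tested. The 171 calls at 10 h became 24 over all 32 arrays, 106 with the 10 and 24 h arrays alone, 70 under median scaling, 86 with an offset of 16, 66 with no filter, and 42 to 1062 with 1 array left out (42 without active 10 h array 1, 1062 without array 2, and 94 and 57 without vehicle 10 h arrays 2 and 3). The 202 calls at 24 h became 16 over all 32 arrays, 79 under median scaling, 112 with no filter, and 45 to 237 with 1 array left out (45 and 87 without active 24 h arrays 1 and 2, and 112 and 129 without vehicle 24 h arrays 1 and 3). The 1041 calls at 48 h became 172 over all 32 arrays, 466 under median scaling, and 713 to 1148 with 1 array left out. With the run of title letters as a replicate block, 82 changes were called, 66 of the 75 among them, and 155, 263 and 1294 effects at 10, 24 and 48 h. The labels do not say that a run marks a shared culture, and of 35 same-run pairs of arrays 21 had deviations that correlated above 0.1 (median 0.121, lowest -0.174), against 8 of 71 different-run pairs (median -0.0644). Same-run pairs thus correlated above 0.1 more often than different-run pairs. The main fit held no term for the run, so any shared run effect was left in its spread and could also shift the estimated changes. The earliest run held no active 24 h array and the latest no active 10 h array, while each run held vehicle arrays of both times. A fit with chip as a term was not run, because the headers name no chips. With 2 active arrays at 10 h and 2 at 24 h, 1 array decides many calls, and signals near background, such as those of IL1A and PTGS2, understate a fold.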

Other observations

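The genes called at both 10 and 24 h in the same direction, chosen after their values were seen, numbered 19 and included the following not described above. AKR1B10, an aldo-keto reductase, had effects of 0.62 at 10 h and 0.79 at 24 h. DLGAP5, a spindle protein, had -0.73 and -0.49. H2BC11, a histone H2B gene, had -0.41 and -0.76. CKAP2, HMMR, KIF14, GPSM2, PTTG1, TRIM6, MLLT11 and UCN2 were also called at both times.

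Cyclophosphamide itself, which needs liver enzymes for activation and which the labels call inactive, was run as another experiment of 16 arrays with its own vehicle. The same change between 10 and 24 h gave 0 called genes there (limma, 128 with an unadjusted p under 0.05). The residual standard deviation was 0.191 there and 0.112 in the experiment with the active compound. The values there were -0.61 for HMOX1 (SE 0.22), 0.01 for IL6 (SE 0.95) and -0.06 for ATF3 (SE 0.31). CCNB2 had -0.04 (SE 0.27) and PCNA 0.30 (SE 0.27), and of these genes 0 passed. The unadjusted limma p for HMOX1 was 0.0127. For IL6 the SE with the active compound was 0.15, so its value with cyclophosphamide is far less precise. The difference between the experiments was not tested.

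Second probes of named or changed genes gave other sizes. The change was 0.85 on the second TSC22D1 probe and 0.70 on the brightest, and 0.40 and 0.58 for TGIF1. OAS2 gave -0.04 on its second probe and 0.37 on the brightest.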
